A study of Sus scrofa with 29 samples.

Results

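Follistatin, the activin subunits it binds and some receptors that bind activins were followed in the lining of 2 pig arteries, in exercise-trained and in sedentary animals. The genes were FST, FSTL1, INHBA, INHBB, ACVR1, ACVR2A and ACVR2B, taken by the gene symbol that the array's annotation gives each probe set. They gave 10 of the 23999 probe sets analysed, for 6 of the 6765 genes named on the array. FST, INHBB, ACVR1 and ACVR2A had a pair of probe sets each, INHBA and ACVR2B had 1 each, and no probe set carried the symbol FSTL1. The family was chosen by values on these same arrays, of which the lower FST signal in exercised internal mammary arteries was known beforehand; what brought in INHBA and INHBB is not recorded. FST, INHBA and INHBB are therefore given as levels and differences without a test, and tests are given for the receptors and for the wider pathway.

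The samples were 29 single-colour oligonucleotide arrays of luminal scrapes from 15 pigs (Sus scrofa), 14 of which gave both arteries. The groups were brachial artery of exercised pigs (n = 7) and of sedentary pigs (n = 7), and internal mammary artery of exercised pigs (n = 8) and of sedentary pigs (n = 7). Exercised pigs trained on a treadmill for 16 to 20 weeks, reaching 85 min a day on 5 days a week, and were sampled about 24 h after their last bout. Sedentary pigs stayed in their enclosures, and the sources used here give no strain, sex or age for either. RNA was primed with oligo(dT) after the lumen had been scraped, which enriches for endothelium without purifying it. For the 8 exercised internal mammary samples, 1 label field reads sedentary, while their titles and treatment tags read exercised, and the titles were followed.

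Follistatin is a secreted glycoprotein that wraps around activins and keeps them from their receptors. Activins are dimers of the inhibin beta subunits encoded by INHBA and INHBB, and inhibins pair such a subunit with the alpha subunit encoded by INHA. An activin first binds a type II receptor, ACVR2A or ACVR2B, which recruits and phosphorylates a type I receptor, and the signal then passes to SMAD proteins. In blood vessels this branch of the transforming growth factor beta family is known for its part in inflammation and in the growth and remodelling of the vessel wall, and in people follistatin in blood is known to increase after exercise, released mostly by the liver.

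Values are log2 intensities, so 1 unit is a factor of 2 in signal. Array medians lay between 7.13 and 7.28, single values between 1.97 and 14.8, and correlations between arrays between 0.965 and 0.995. Of 11 listed endothelial markers 9 were measured: PECAM1, CDH5, TEK, NOS3 and CLDN5 averaged between 12.4 and 14.0, while VWF averaged 7.53 and KDR, at 4.03, was among the dimmest 33.3% of probe sets. Markers of smooth muscle (8 of 11 genes measured, mean log2 intensity between 11.1 and 13.1 on single arrays) and of fibroblasts (8 of 10, between 8.83 and 10.5) were also present. The internal mammary arrays of sedentary pigs 13_2 and 15_1 stood apart in FST and in several genes that varied with it, and FST is given below with and without these animals.

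**Figure D1:**
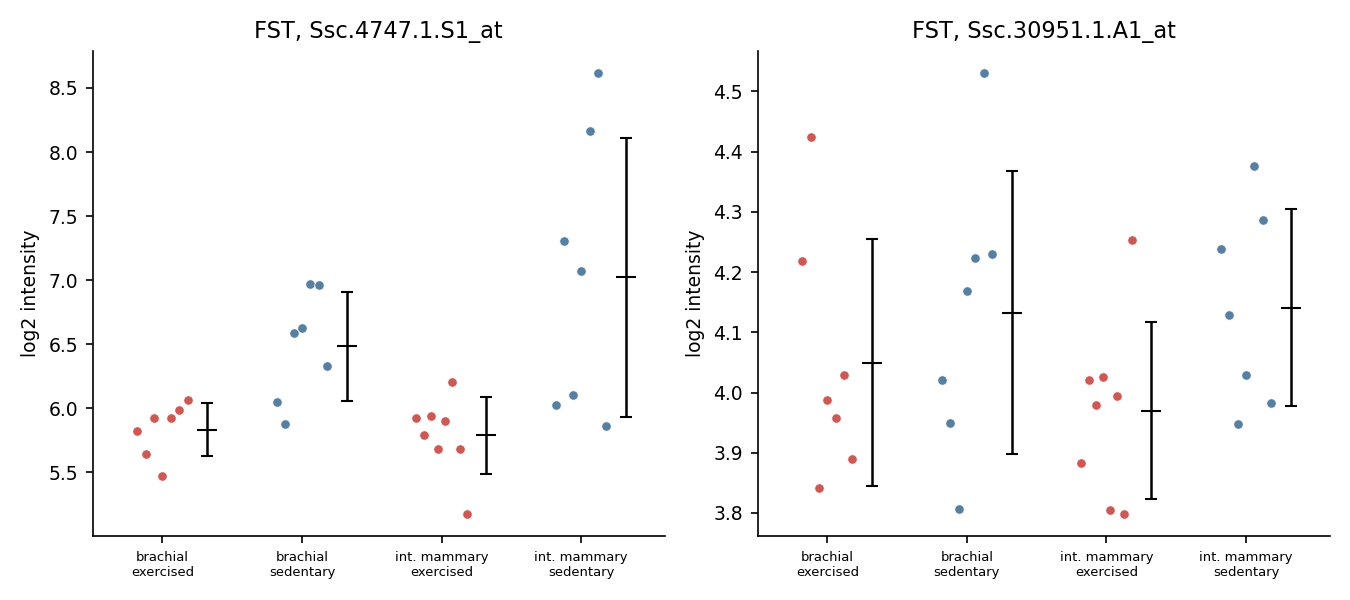
Log2 intensity (vertical axes) of the 2 FST probe sets in every array, exercised in red and sedentary in blue, with the group mean and SD in black. In the left panel (the brighter probe set) exercised arteries lie between 5.17 and 6.21, and the 2 highest points of all are sedentary internal mammary arteries at 8.16 and 8.62. In the right panel (the dimmer probe set) the groups overlap throughout.

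FST averaged lower in exercised than in sedentary pigs in both arteries. The brighter of its 2 probe sets read between 5.47 and 6.06 (median 5.92) in exercised brachial arteries, against between 5.88 and 6.97 (median 6.59) in sedentary brachial arteries. Internal mammary values lay between 5.17 and 6.21 (median 5.85) in exercised pigs and between 5.86 and 8.62 (median 7.07) in sedentary pigs. The ranges overlapped in both arteries, yet all 7 exercised brachial arrays and all 8 exercised internal mammary arrays lay under the mean of their sedentary group. Below every sedentary array lay 3 of 7 exercised arrays in brachial arteries and 4 of 8 in internal mammary arteries. In a scrape of mixed cells, fewer cells of a type and less RNA per cell cannot be told apart.

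Means of FST were 5.83 ± 0.21 in exercised and 6.48 ± 0.42 in sedentary brachial arteries (SD, n = 7 each), a log2 difference of -0.66 ± 0.30 (SE), or 1.58-fold lower signal with training. Internal mammary means were 5.79 ± 0.30 in exercised pigs (SD, n = 8) and 7.02 ± 1.09 in sedentary pigs (SD, n = 7), a log2 difference of -1.23 ± 0.29 (SE), or 2.35-fold lower. Averaged over both arteries the log2 difference was -0.95 ± 0.23 (SE). From highest to lowest, the groups ran sedentary internal mammary, sedentary brachial, exercised brachial and exercised internal mammary. Neighbouring groups in that order had overlapping ranges, and the exercised groups differed from each other by less than their SD. By size of difference, FST was the 31st lowest of the 23999 probe sets in the internal mammary artery and the 136th lowest in the brachial artery. Its internal mammary values brought FST forward, so the rank in that artery restates the choice and adds no separate support.

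Since the fit across all probe sets was among the values that brought FST forward, its calls are given as counts. For the internal mammary artery 1 of the 10 member probe sets was called at an adjusted p under 0.05 (limma), the lower FST, beside 0.596% of all probe sets called in either direction, 0.458% higher and 0.138% lower. In the brachial artery 0 members were called, beside 1.63% of all probe sets (1.02% higher and 0.613% lower), with 2 members at an unadjusted p under 0.05 beside 15.4% of all probe sets, a share near that background. In the mean of both arteries 1 member was called, again FST and lower, beside 4.68% of all probe sets in either direction, 2.88% higher and 1.8% lower. No member had exercised and sedentary groups that did not overlap, which was the case for 0.604% of all probe sets in brachial and 0.288% in internal mammary arteries. The median log2 difference of the 10 members was -0.07 against 0.01 over all probe sets in the brachial artery, and -0.03 against 0.01 in the internal mammary artery.

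The size of the FST difference depended on 2 sedentary pigs. Pig 15_1 had 6.97 in brachial and 8.62 in internal mammary arteries, and pig 13_2 had 6.97 and 8.16, whereas the other 5 sedentary pigs had between 5.86 and 7.31 in the internal mammary artery. Without these 2 sedentary pigs the internal mammary difference was -0.69 ± 0.22 (SE), the brachial difference -0.46 ± 0.22 and the mean of both -0.58 ± 0.17. FST was then no longer called in either the internal mammary artery or the mean of both arteries. Leaving out a single pig moved the internal mammary difference between -1.43 and -0.97, and the call ended without any 1 of 11 pigs (10_1, 10_5, 11_1, 11_3, 12_2, 12_3, 12_5, 13_2, 15_1, 15_2 or 15_4). The mean of both arteries contains the internal mammary values that brought FST forward, so its call adds no separate support. With the internal mammary arrays fitted alone the difference was -1.23, and FST was not called. With the values of both arteries averaged per pig, over the 14 pigs that gave both, it was -0.94, and FST was again not called.

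The FST difference also varied with the dates in the labels, which do not say what the date records. The internal mammary difference was -0.79 among the 8 pigs dated earlier (4 exercised, 4 sedentary) and -1.81 among the 7 dated later (4 exercised, 3 sedentary). In the brachial artery it was -0.49 among the earlier pigs (3 exercised, 4 sedentary) and -0.89 among the later ones. The sign was therefore the same in both periods and both arteries. Pigs 13_2 and 15_1 both belong to the later period, and FST was called in neither period alone.

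Other measures moved with training in the same samples. In the brachial artery the mean of 8 macrophage markers was 8.00 ± 0.24 in exercised and 8.59 ± 0.39 in sedentary pigs (SD, n = 7 each; exact permutation test, two-sided, adjusted p = 0.0245 over 18 tests), and 7 of 7 exercised arrays lay under the sedentary mean. With that mean as a covariate the brachial FST difference was -0.20 ± 0.35 (SE), against -0.66 without it, while the internal mammary difference was -1.14 ± 0.28. Over all probe sets the same covariate took the training calls from 392 to 6 in the brachial artery and from 143 to 92 in the internal mammary artery. The loss of calls is therefore not particular to FST, and the part of macrophages in the FST difference was not tested. Among internal mammary arrays the mean of 4 lymphocyte markers was 6.46 ± 0.26 in exercised pigs (SD, n = 8) and 6.06 ± 0.25 in sedentary pigs (SD, n = 7; exact permutation test, adjusted p = 0.0319), and its part in the FST difference was not tested. CD79B, a B cell receptor component, carried that mean with a difference of 1.46 (limma, adjusted p = 0.0244), while the T cell genes CD3E, CD3D and CD2 lay at -0.10, 0.11 and 0.13 and did not pass. The ratio of 28S to 18S ribosomal RNA in the labels was 1.33 ± 0.084 in exercised and 1.19 ± 0.076 in sedentary internal mammary samples (exact permutation test, adjusted p = 0.0159 over 5 tests). With that ratio as a covariate the internal mammary FST difference was -1.20 ± 0.32 (SE).

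The second FST probe set was among the dimmest 33.3% of probe sets and showed little. It read between 3.84 and 4.42 (median 3.99) in exercised and between 3.81 and 4.53 (median 4.17) in sedentary brachial arteries. Its internal mammary values lay between 3.80 and 4.25 (median 3.99) in exercised pigs and between 3.95 and 4.38 (median 4.13) in sedentary pigs. Its log2 differences, -0.08 ± 0.10 and -0.17 ± 0.10 (SE), had the sign of the brighter probe set, but the brachial one was 0.18 in the 8 earlier pigs, -0.36 in the 7 later ones and 0.02 without pigs 13_2 and 15_1. Across the 29 arrays the pair correlated at r = 0.416, and at r = 0.284 once the 4 group means had been removed.

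**Figure D2:**
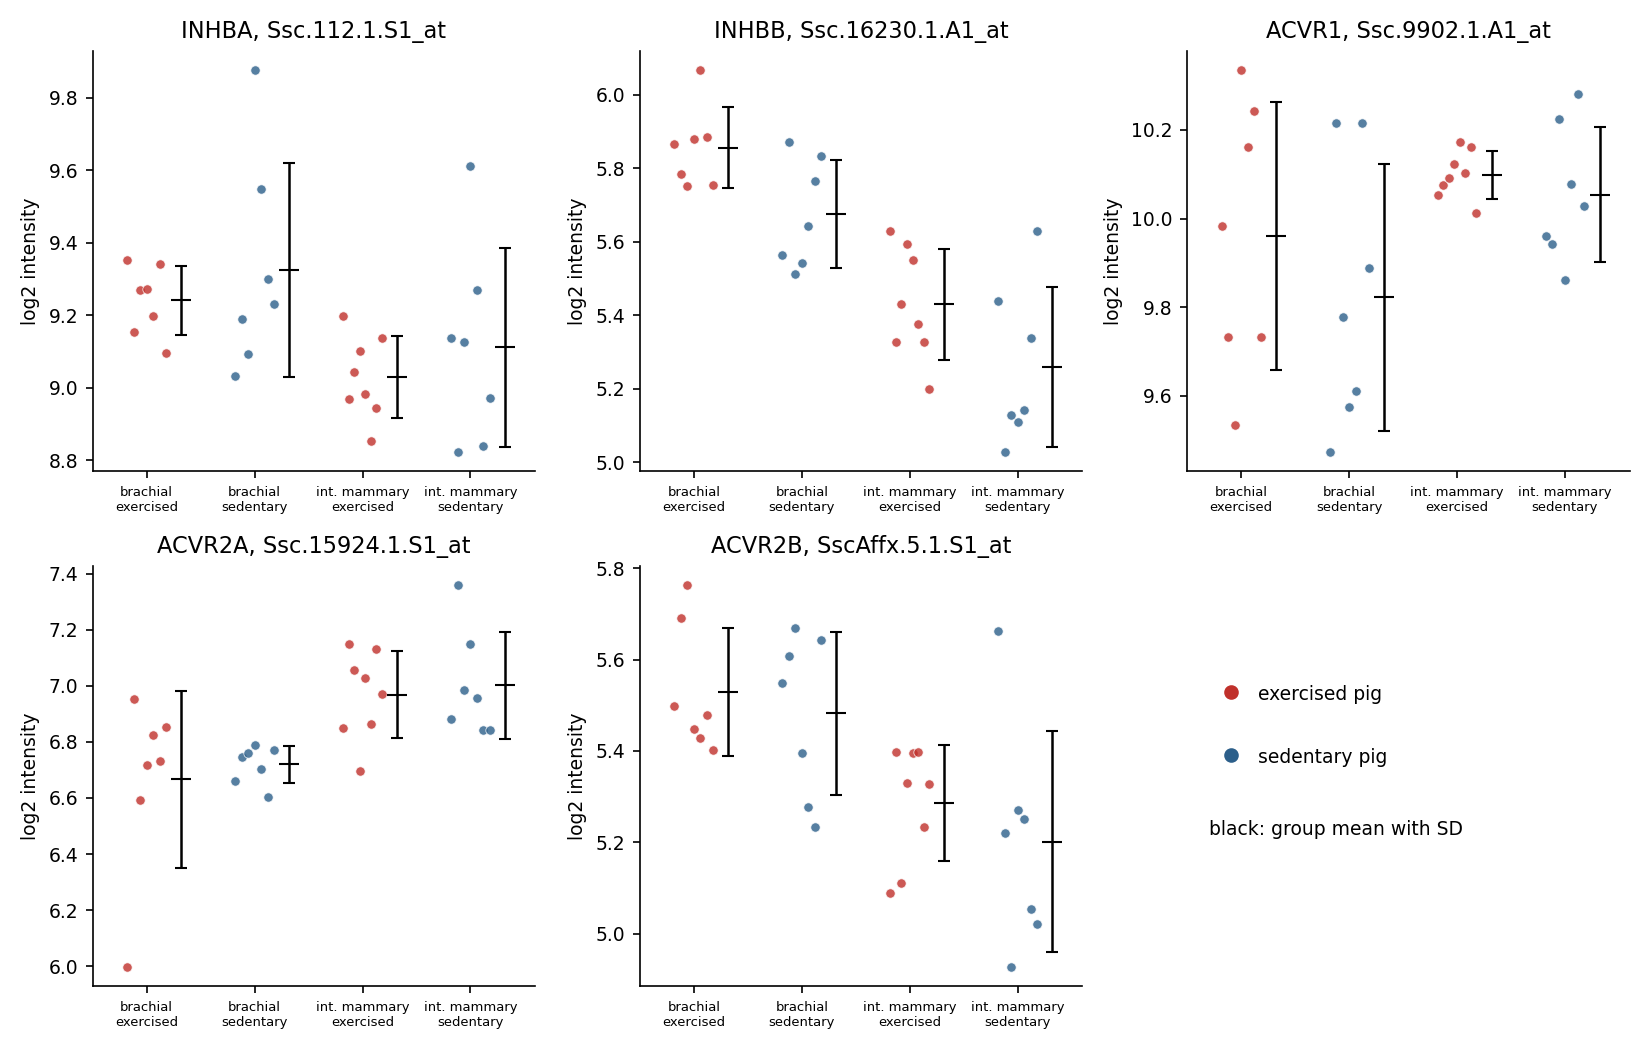
Log2 intensity (vertical axes) of the brightest probe set of INHBA, INHBB, ACVR1, ACVR2A and ACVR2B in every array, exercised in red and sedentary in blue, with group mean and SD in black. Groups of the same artery overlap for every gene; INHBB sits higher in the brachial artery and ACVR2A in the internal mammary artery.

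INHBA encodes the subunit of activin A. Its probe set read between 9.10 and 9.35 (median 9.27) in exercised and between 9.03 and 9.88 (median 9.23) in sedentary brachial arteries. The internal mammary values lay between 8.85 and 9.20 (median 9.01) in exercised pigs and between 8.82 and 9.61 (median 9.13) in sedentary pigs. The exercised range lay wholly inside the sedentary range in both arteries, and sedentary pig 12_3 held the highest value in each, 9.88 in brachial and 9.61 in internal mammary arteries.

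Training differences of INHBA were -0.08 ± 0.11 in brachial and -0.08 ± 0.10 in internal mammary arteries (SE). Without pig 12_3 they were 0.01 in the brachial artery and 0.00 in the internal mammary artery. Between the arteries it was higher in the brachial one in 11 of 14 pigs, by 0.21 ± 0.06 (SE).

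INHBB encodes the subunit of activin B and was higher in the brachial artery. Its brighter probe set read between 5.75 and 6.07 (median 5.87) in exercised and between 5.51 and 5.87 (median 5.64) in sedentary brachial arteries. Values in the internal mammary artery lay between 5.20 and 5.63 (median 5.40) in exercised pigs and between 5.03 and 5.63 (median 5.14) in sedentary pigs. It was higher in the brachial artery in all 14 pigs, by between 0.13 and 0.84, with a fitted difference of 0.42 ± 0.05 (SE). A difference of 1 sign in all 14 pigs was seen for 15.7% of all probe sets.

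The training difference of INHBB was 0.19 ± 0.09 in brachial and 0.17 ± 0.08 in internal mammary arteries (SE), with 7 of 7 and 7 of 8 exercised arrays above their sedentary mean. For the internal mammary artery it was 0.32 among the pigs dated earlier and -0.01 among those dated later. The second INHBB probe set was dimmer, with group means between 4.44 and 4.67. It differed by -0.08 ± 0.07 and -0.03 ± 0.07 with training (SE), the opposite sign to the first. Between the arteries it agreed in sign, at 0.18 ± 0.04 (SE) and higher in the brachial artery in 13 of 14 pigs with 1 tie. After quantile normalization it was 0.08, against 0.36 for the brighter probe set. Both INHBB probe sets were among the dimmest 33.3%, whose calls between the arteries leaned to higher brachial signal. Of all calls between the arteries 58.6% were higher in the brachial artery, against 46.5% without that dimmest part. The higher brachial INHBB is therefore not particular to this gene. The INHBB pair correlated at r = 0.156 over the 29 arrays with group means removed.

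**Figure D3:**
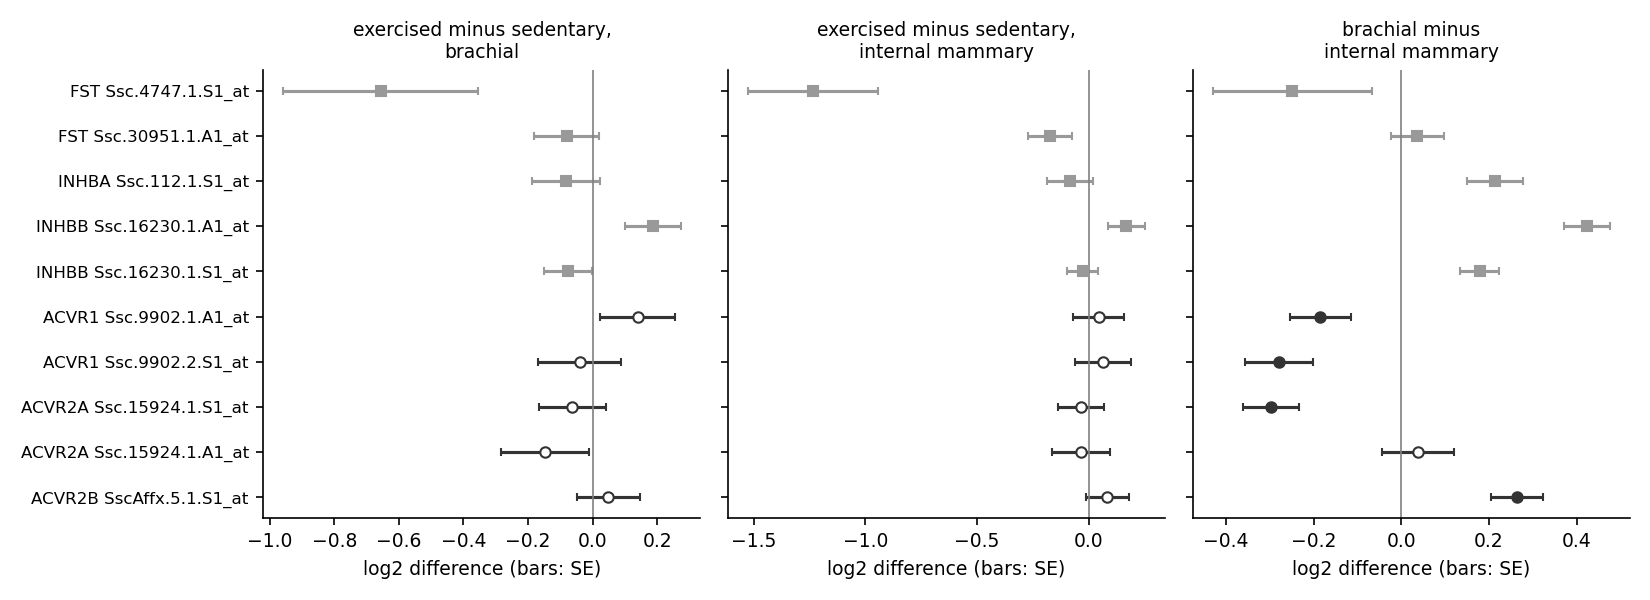
Log2 differences of the 10 member probe sets (horizontal axes, bars are SE) for training in each artery and between the arteries. Grey squares are FST, INHBA and INHBB, given without a test; for the receptors, filled circles passed an adjusted p of 0.05 and open circles did not. No receptor circle is filled for training, while 4 of 5 are filled between the arteries.

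The receptors ACVR1, ACVR2A and ACVR2B showed no training difference that passed the test in either artery. Across the 5 receptor probe sets the brachial differences ran from -0.15 to 0.14 (limma, adjusted p between 0.62 and 0.92), and the internal mammary differences from -0.03 to 0.08 (limma, adjusted p between 0.80 and 0.96). The SE of these differences was between 0.10 and 0.14, so changes of that size lay within the error. Between arteries, 7 of the 10 member probe sets were called, 4 higher and 3 lower in the brachial artery, beside 54.3% of all probe sets, of which 31.8% were higher and 22.5% lower. With so many probe sets called, the members' share is near the background. With arrays centred on their medians 69.4% of all calls between the arteries were higher in the brachial artery, against 58.6% as deposited.

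ACVR2A, a type II receptor for activins and myostatin, was lower in the brachial artery. The brighter ACVR2A probe set read between 6.00 and 6.95 (median 6.73) in exercised and between 6.60 and 6.79 (median 6.75) in sedentary brachial arteries. In internal mammary arteries it read between 6.70 and 7.15 (median 7.00) in exercised pigs and between 6.84 and 7.36 (median 6.96) in sedentary pigs. The brachial value was the lower one in all 14 pigs, and the fitted difference was -0.30 ± 0.06 (SE; limma, adjusted p = 0.000264). The dimmer ACVR2A probe set showed no such difference (0.04 ± 0.08, SE; limma, adjusted p = 0.712), was higher in the brachial artery in 7 of 14 pigs, and correlated with the first at r = 0.0179 over the 29 arrays.

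ACVR2B, the other type II receptor, went the opposite way. The ACVR2B probe set read between 5.40 and 5.76 (median 5.48) in exercised and between 5.23 and 5.67 (median 5.55) in sedentary brachial arteries. Its values in internal mammary arteries lay between 5.09 and 5.40 (median 5.33) in exercised pigs and between 4.93 and 5.66 (median 5.22) in sedentary pigs. It was higher in the brachial artery in 13 of 14 pigs, by 0.26 ± 0.06 (SE; limma, adjusted p = 0.000488). However, it too was among the dimmest 33.3% of probe sets, whose calls leaned to higher brachial signal, so this direction is not particular to it.

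ACVR1, a type I receptor best known for bone morphogenetic protein signalling that also binds activin A, was lower in the brachial artery with both probe sets. The brighter ACVR1 probe set read between 9.53 and 10.34 (median 9.98) in exercised and between 9.47 and 10.22 (median 9.78) in sedentary brachial arteries. Exercised internal mammary values lay between 10.01 and 10.17 (median 10.10), and sedentary ones between 9.86 and 10.28 (median 10.03). The brachial arrays were thus spread more widely than the internal mammary ones.

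The difference between arteries was -0.18 ± 0.07 with that probe set (SE; limma, adjusted p = 0.0276; lower in 10 of 14 pigs) and -0.28 ± 0.08 with the dimmer one (SE; limma, adjusted p = 0.00354; lower in 12 of 14 pigs). The pair followed each other across the 29 arrays (r = 0.794). The call of the brighter probe set ended without any 1 of pigs 10_2, 10_5, 11_3, 11_4, 13_2 or 15_4, with values between -0.23 and -0.15 over all pigs left out in turn, whereas that of the dimmer one held without each pig. Over 16 other settings the call of the brighter one held in 8, with -0.05 under the 28S/18S covariate, and that of the dimmer one in 13.

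Some markers of other cell types and the RNA quality in the labels also differed between the arteries. The fibroblast marker mean was 10.15 in brachial and 9.50 in internal mammary arteries (difference 0.65, higher in 13 of 14 pigs, exact permutation test over sign flips, adjusted p = 0.0033). That difference came from 3 of its 8 genes, DPT (2.23), THY1 (1.38) and COL6A3 (1.36), whereas DCN, LUM, COL3A1, FBLN1 and COL1A2 lay between -0.14 and 0.26 and did not pass (limma). The adipocyte mean, over 3 of 5 genes, was 6.15 in brachial and 5.95 in internal mammary arteries (higher in 14 of 14 pigs, exact permutation test, adjusted p = 0.0022). The macrophage mean was 8.29 in brachial and 8.61 in internal mammary arteries (exact permutation test, adjusted p = 0.0319). By group it was 8.00 (n = 7) and 8.57 (n = 8) in exercised pigs, and 8.59 and 8.69 in sedentary pigs (n = 7 each). With the fibroblast mean as a covariate 4 member probe sets were called between the arteries rather than 7, and the ACVR2A difference was -0.21 (limma, adjusted p = 0.0876). Over all probe sets that covariate took the calls from 13026 to 9246, so the loss of calls is not particular to the members. The 28S to 18S ratio was 1.40 in brachial and 1.25 in internal mammary samples (higher in 11 of 14 pigs, exact permutation test, adjusted p = 0.0159). With that ratio as a covariate 5 member probe sets were called, 4 higher and 1 lower, and neither ACVR1 probe set was among them. Calls over all probe sets were then 11047, again fewer than the 13026 without a covariate. Endothelial markers averaged 10.90 in brachial and 10.97 in internal mammary arteries (exact permutation test, adjusted p = 0.71).

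The training change of the members was not shown to differ between the arteries. The FST difference was 0.58 ± 0.36 (SE) less negative in the brachial than in the internal mammary artery, with 0 members called, beside 0% of all probe sets. At an unadjusted p under 0.05 (limma) there were also 0 members, against 1035 of the 23999 probe sets. Within pigs, FST in the brachial minus the internal mammary artery averaged 0.03 ± 0.44 in exercised and -0.54 ± 0.90 in sedentary animals (SD, n = 7 each).

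For none of the 6 genes did the relation between the arteries of a pig pass the adjustment, which does not show that they are unrelated. Over the 14 pigs with both arteries, with training means removed, FST correlated at r = 0.474 and rho = 0.275 (permutation test, p = 0.0864 and 0.342; adjusted p = 0.228 and 0.41 over 6 genes). INHBA correlated at r = 0.658 and rho = 0.398 (permutation test, p = 0.017 and 0.162; adjusted p = 0.102 and 0.351). Without the 2 pigs farthest from the median, r was 0.0581 for INHBA, so that relation rested on them, 0.563 for FST, 0.662 for INHBB, 0.683 for ACVR1, 0.0873 for ACVR2A and 0.151 for ACVR2B, against 0.231 for INHBB, 0.444 for ACVR1, 0.365 for ACVR2A and -0.176 for ACVR2B over all 14. No relation between ligand and binding protein passed either. Between FST and INHBA r was 0.409 (rho 0.402) in the 14 brachial arrays and -0.149 (rho -0.164) in the 15 internal mammary arrays, and of 6 such relations among FST, INHBA and INHBB none passed (permutation tests, smallest adjusted p = 0.692 for r and 0.833 for rho).

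**Figure D4:**
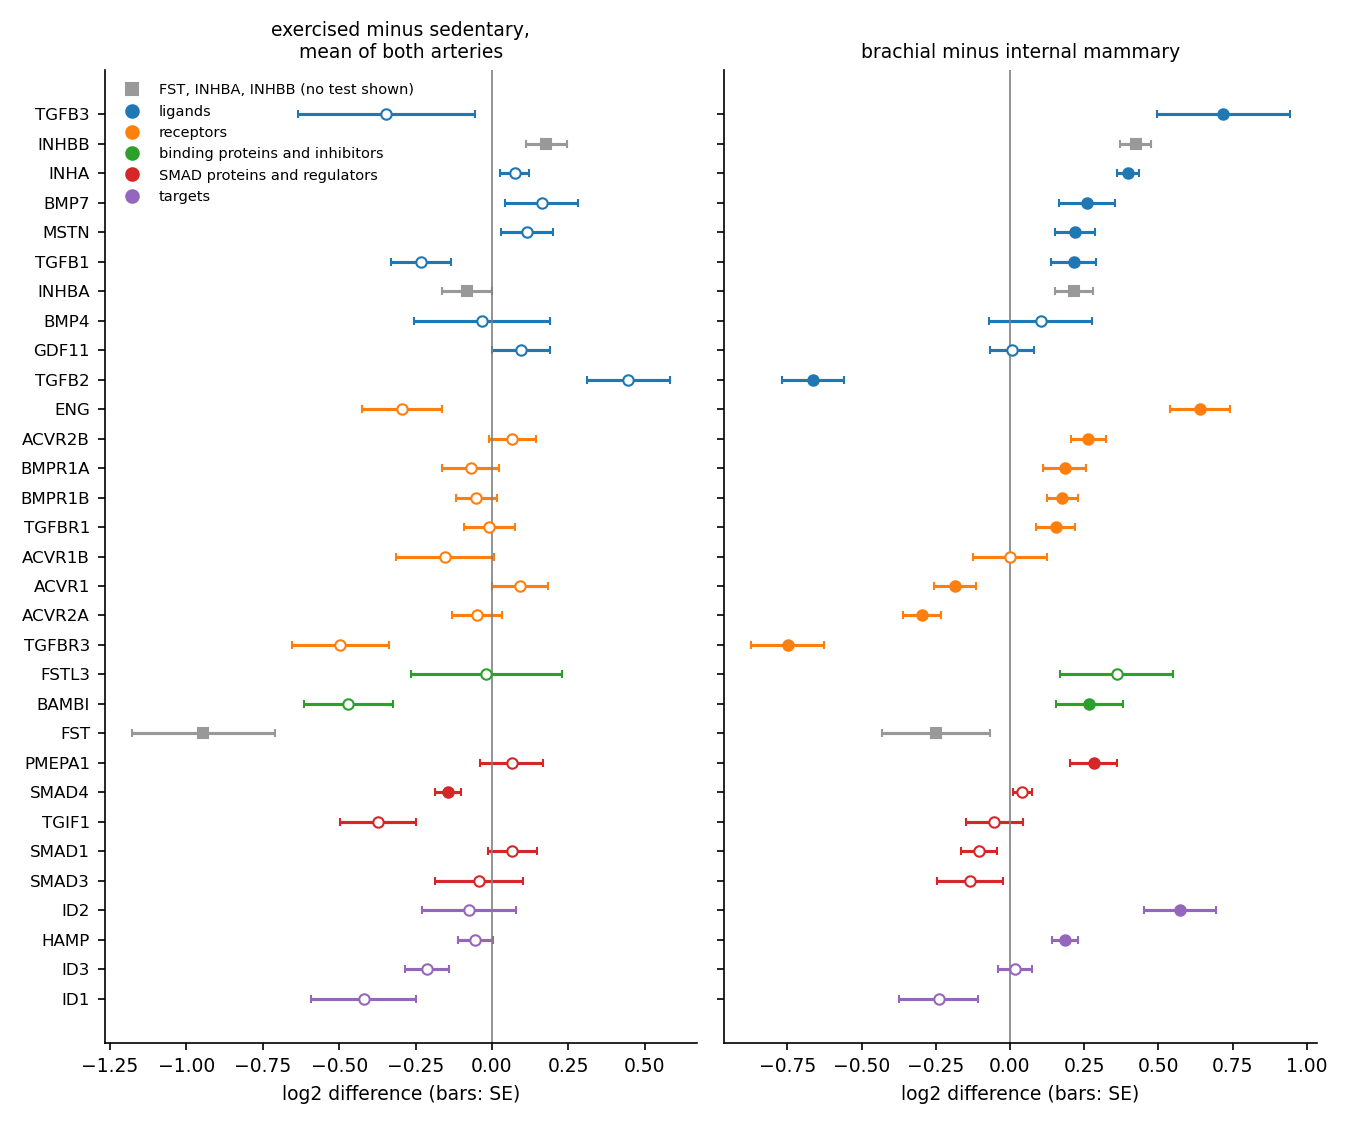
Log2 differences (horizontal axes, bars are SE) of 31 genes of the activin and wider transforming growth factor beta pathway, by role, for training averaged over both arteries and between the arteries. Filled circles passed an adjusted p of 0.05, open circles did not, and grey squares are FST, INHBA and INHBB. In the left panel FST is the lowest point at -0.95 and SMAD4 is the sole filled circle; most ligands lie right of 0 in the right panel.

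Set among 31 measured genes of the pathway (10 ligands, 9 receptors, 3 binding proteins and inhibitors, 5 SMAD proteins and regulators and 4 targets), few were called with training. In the mean of both arteries 2 of the 31 were called, both lower, beside 4.68% of all probe sets: FST and SMAD4, the common partner of receptor-activated SMADs. FST had been put forward by its training values, and without FST, INHBA and INHBB it was 1 of 28 (3.57%). SMAD4 averaged 10.89 ± 0.10 in exercised and 11.01 ± 0.11 in sedentary brachial arteries (SD, n = 7 each), and 10.82 ± 0.08 in exercised (n = 8) and 10.99 ± 0.06 in sedentary (n = 7) internal mammary arteries. It fell by 0.14 ± 0.04 on the log2 scale (SE; limma, adjusted p = 0.0408), but the call held in 3 of the 15 fits that left out 1 pig (12_5, 13_2 or 14_3) and ended without any other pig, with values between -0.17 and -0.13. It also ended in 6 of 16 other settings. These were arrays centred on their medians, values averaged per pig over both arteries, the 28S/18S and the macrophage covariate. The remaining settings were the earlier and the later pigs alone. The median over the 31 genes was -0.05, against 0.01 over all probe sets. The ligand TGFB2 gave a split picture: its brightest probe set differed by 0.45 ± 0.14 (SE; limma, adjusted p = 0.0556), and 1 of its 3 others rose by 0.61 ± 0.16 (SE; limma, adjusted p = 0.0217).

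The other inhibitors measured were BAMBI, a decoy receptor, and FSTL3, a relative of follistatin that also binds activins. BAMBI differed by -0.47 ± 0.15 (SE; limma, adjusted p = 0.0602) in the mean of both arteries, and its second probe set by -0.35 ± 0.12 (limma, adjusted p = 0.087). The brighter of 2 FSTL3 probe sets showed -0.02 ± 0.25 (SE; limma, adjusted p = 0.979), with levels between 8.37 and 10.44 over all arrays. Whether FST and FSTL3 differ in their response was not tested.

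In the brachial artery 0 of 31 genes were called, beside 1.63% of all probe sets. The smallest p-values there belonged to TGIF1, a repressor of SMAD-driven transcription (-0.51 ± 0.16, SE; limma, adjusted p = 0.086), and BMP7, a bone morphogenetic protein (0.38 ± 0.15, SE; limma, adjusted p = 0.213). The internal mammary artery had 1 of 31 called, beside 0.596% of all probe sets. That gene was FST, put forward by its values in this artery, and without FST, INHBA and INHBB it was 0 of 28. SMAD4 (-0.17 ± 0.05, SE; limma, adjusted p = 0.123) and ID3, a target of bone morphogenetic proteins (-0.29 ± 0.09, SE; limma, adjusted p = 0.13), were nearest to FST. The difference of the training change between arteries was called for 0 of 31, beside 0% of all probe sets, with BMP7 (0.43 ± 0.19) and ENG (0.44 ± 0.20) at the smallest p (SE; limma, adjusted p of 1.0 for both).

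Between the arteries 20 of the 31 genes were called, 16 higher and 4 lower in the brachial artery, beside 54.3% of all probe sets (31.8% higher and 22.5% lower). Without FST, INHBA and INHBB it was 18 of 28 (64.3%), 14 higher and 4 lower, so the pathway's share of calls is not far from the background. The median difference of the 31 was 0.18, against 0.03 over all probe sets. Of the 10 ligands 7 were higher and 1 was lower, and INHBA and INHBB, chosen with these data in view, are among the 7. INHA, the inhibin alpha subunit, was higher by 0.40 ± 0.04 (SE; limma, adjusted p = 5.48e-10), next to INHBB and INHBA, with which its product pairs. ENG, an endothelial co-receptor for transforming growth factor beta, was higher by 0.64 ± 0.10 (SE; limma, adjusted p = 5.9e-06) and ID2, a target of bone morphogenetic proteins, by 0.57 ± 0.12 (SE; limma, adjusted p = 0.000218).

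The 4 lower genes were ACVR1, ACVR2A, TGFB2 and TGFBR3. TGFBR3, the betaglycan co-receptor that presents TGFB2 and binds inhibins, was lower by 0.75 ± 0.12 (SE; limma, adjusted p = 9.79e-06). The brightest TGFB2 probe set, for a transforming growth factor beta ligand, was lower by 0.66 ± 0.11 (SE; limma, adjusted p = 6.53e-06), while its 3 other probe sets lay between -0.29 and -0.10 and did not pass (limma, adjusted p between 0.102 and 0.446). The calls of INHA, ENG, ID2, TGFB2 and TGFBR3 between the arteries held without each pig.

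**Figure D5:**
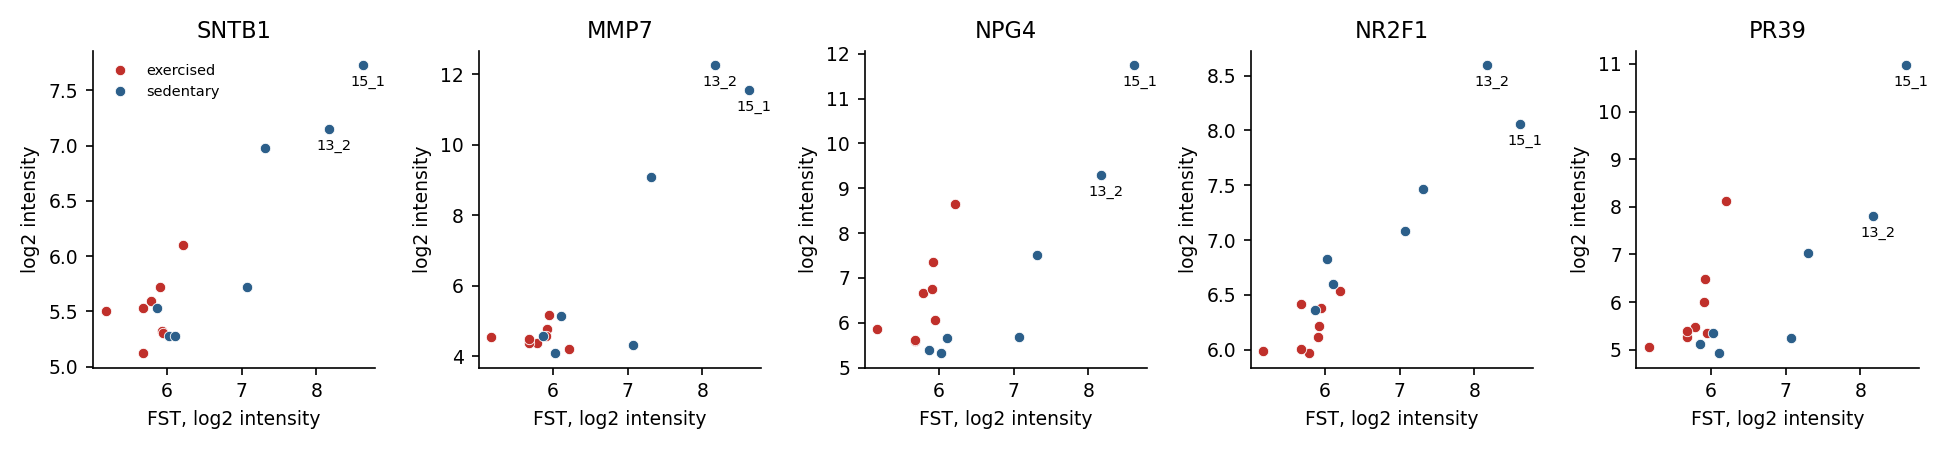
Log2 intensity of FST (horizontal axes) against that of the 5 genes most like it (vertical axes) in the 15 internal mammary arrays, exercised in red and sedentary in blue. Sedentary pigs 13_2 and 15_1 lie farthest right in every panel; they are the 2 highest points for SNTB1, MMP7, NPG4 and NR2F1, while for PR39 an exercised pig lies above 13_2.

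Likeness of pattern was measured as Pearson's r over the 29 arrays with the 4 group means removed, as a description, since arrays share pigs. Most like FST were SNTB1, a syntrophin (r = 0.838), MMP7, the secreted protease matrilysin (0.827), the cathelicidin NPG4 (0.819), NR2F1, a nuclear receptor (0.809), and the cathelicidin PR39 (0.804). NPG4 and PR39 are closely related antimicrobial peptide genes, so their probe sets may not separate them. The likeness lay mostly in the internal mammary artery, where r was between 0.863 and 0.908, against between 0.0105 and 0.665 in the brachial artery.

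Pigs 13_2 and 15_1 weighed on it. MMP7 read 12.26 and 11.54 in their internal mammary arteries, against between 4.07 and 9.09 in the other 5 sedentary pigs and between 4.20 and 5.16 in exercised pigs. NPG4 read 9.29 and 11.75 in these arrays, against between 5.32 and 7.51 in other sedentary and between 5.58 and 8.65 in exercised pigs. Without both pigs, r within the internal mammary artery was 0.837 for NR2F1, 0.713 for SNTB1, 0.671 for NPG4, 0.655 for PR39 and 0.557 for MMP7 (13 pigs).

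NR2F1, the closest of these without pigs 13_2 and 15_1, had a training difference of -1.08 ± 0.22 in the internal mammary artery (SE; limma, adjusted p = 0.0219), and of -0.66 ± 0.16 without them (limma, adjusted p = 0.085). Its call in that artery also ended without pig 10_5, 11_1 or 15_1 alone. The internal mammary training differences of SNTB1 (-0.71), MMP7 (-2.73), NPG4 (-0.66) and PR39 (-0.74) did not pass (limma, adjusted p between 0.153 and 0.765). In the same arteries of pigs 13_2 and 15_1 the endothelial marker VWF read 12.06 and 11.16, against 6.05 to 11.09 in the other 13 pigs. The mean of the 8 other endothelial markers was 11.38 and 11.14, inside the 10.83 to 11.56 of the other pigs. The macrophage mean was 8.64 and 9.26, against 8.06 to 9.04. VWF had an internal mammary training difference of -2.14 ± 0.63 (SE; limma, adjusted p = 0.112). The part of these in the FST values was not tested.

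Least like FST were SRSF2, a splicing factor (r = -0.742), SLC35C2 (-0.704), the kinase CDK16 (-0.684), the ubiquitin ligase RNF5 (-0.679) and SERPIND1, heparin cofactor II (-0.677). INHBA went most closely with SLC46A3 (r = 0.878), STAT3, a transcription factor downstream of cytokine receptors (0.873), and ARRDC4, an arrestin-like protein (0.854), and ran opposite to CDC42EP3 (-0.913), MAP7D1 (-0.827) and RETREG1 (-0.818). For INHBA these held in each artery, with r for STAT3 of 0.871 in brachial and 0.879 in internal mammary arteries, but pig 12_3 weighed on them. Without that pig, an exclusion chosen after seeing the data, r over 27 arrays was 0.853 for SLC46A3, 0.665 for STAT3, 0.653 for ARRDC4, -0.811 for CDC42EP3, -0.589 for MAP7D1 and -0.719 for RETREG1. INHBB went most closely with C17H20orf27 (r = 0.723), MYZAP (0.701) and ASS1, argininosuccinate synthase, which regenerates the arginine used for nitric oxide (0.696), and ran opposite to PPME1 (-0.726), ZNF263 (-0.722) and ELAC2 (-0.678). Among the genes named as most or least like FST, INHBA and INHBB none appears for more than 1 of them. With so few named at each end, that says little about whether their patterns differ.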

How the data were processed

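The authors deposited a table of log2 intensities, 1 value per probe set and array; per the submitters' processing notes the affy package was used, and its version, the summary method, the background correction and the normalization are not given in the sources used here. The values were used as deposited. The table holds 24123 probe sets; 124 controls were left out. Symbols came from the platform annotation (10069 probe sets with 1 symbol, 198 with several, 13732 with none); 9961 of those with 1 symbol matched a RefSeq gene table by Entrez ID. A gene with several probe sets is represented by the brightest, and for the members the others are given too. Of the pathway genes with 2 probe sets, FSTL3 and TGIF1 are given by the brightest alone.

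One model over all probe sets was fitted with limma 3.58.1 in R 4.3.3 (4 group means, pig as a random block through duplicateCorrelation, consensus correlation 0.255), with Benjamini-Hochberg adjustment over 23999 probe sets and a threshold of 0.05. The block comes from the pig numbers in the labels; with group means removed, the 2 arteries of a pig correlated at a median of 0.19 (12 of 14 above 0), against -0.023 between pigs. Relations across pigs used 1e+05 permutations, marker means exact permutation tests. The procedure was tested on simulated data. Members, pathway list and markers were chosen with earlier results of these data known. From the pathway list, genes called were named up to 4 a direction by smallest p, or the 2 with the smallest p where none was called; BAMBI, FSTL3, TGFB2 with training and the remaining pairs of probe sets were named after their values were seen. Likeness names the 5 (FST) or 3 (INHBA, INHBB) probe sets at either end. Pigs are separate animals; each artery of each was arrayed once, and the number of arrays limits the precision.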

Additional observations from a re-analysis of the deposited data

Results flagged for a closer look

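Of 40 groups of member values (10 probe sets in 4 groups), 2 held an array far from the others of its group, where chance alone gives about 1 in 20 groups. Exercised pig 10_1 read 6.00 for the brighter ACVR2A probe set in the brachial artery, with the next lowest of the 7 arrays at 6.59. Exercised pig 14_3 read 6.07 for the brighter INHBB probe set in the brachial artery, with the next highest of the 7 at 5.88. Without pig 10_1 the ACVR2A training difference in the brachial artery was 0.05 rather than -0.06, and without pig 14_3 that of INHBB was 0.15 rather than 0.19.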

How the results depend on the processing

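Each count and difference was recomputed under 16 other settings and without each of 15 pigs, of which 4 settings (period of label dates as a factor, the 8 earlier or the 7 later pigs alone, and all but pigs 13_2 and 15_1) were chosen after seeing the data. Of the members, 0 were called for training in the brachial artery and for the difference between arteries in every setting. The 1 member called in the internal mammary artery became 0 with no replicate block, with that artery fitted alone and with array weights. It also became 0 with the 28S/18S ratio or the macrophage mean as a covariate. The same held in the earlier or the later pigs alone and without pigs 13_2 and 15_1. As pigs were left out in turn, the count ranged from 0 to 1. The 1 member called in the mean of both arteries became 0 with values averaged per pig and with the macrophage covariate. It also became 0 in the earlier or the later pigs alone and without pigs 13_2 and 15_1. Between arteries 7 became 4 without the dimmest 33.3% of probe sets (which removes 5 members), with the fibroblast covariate and in the later pigs alone. Over all probe sets the calls in these settings were 8981 (of fewer tested), 9246 and 8596, against 13026 as reported. FST (the brighter probe set) kept its sign with training in both arteries throughout, between -1.81 and -0.69 in the internal mammary artery; between the arteries, at -0.25 as reported, it turned to 0.01 with the macrophage covariate and was -0.79 with the fibroblast covariate, the 1 setting of 16 that called it. The dimmer FST probe set changed sign with training in the earlier pigs (0.18 in brachial arteries, 0.04 in the mean of both) and without pigs 13_2 and 15_1 (0.02 in brachial arteries).

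Differences of the receptors that lay near 0 changed sign, none of them called. For the dimmer ACVR2A probe set these were 0.02 with training in the brachial artery in the earlier pigs; 0.03 with array weights, 0.00 in the earlier pigs and 0.01 without pigs 13_2 and 15_1 in the internal mammary artery (-0.07 to 0.05 as pigs were left out); and -0.05 after quantile normalization, -0.00 with the 28S/18S covariate and -0.01 in the earlier pigs between arteries (-0.02 to 0.10). For the brighter one they were 0.09 in brachial and 0.12 in internal mammary arteries of the later pigs and 0.03 with array weights in the internal mammary artery over all pigs, with -0.11 to 0.05 in the brachial and -0.06 to 0.03 in the internal mammary artery as pigs were left out. For the brighter ACVR1 probe set they were -0.01 in the brachial artery of the earlier pigs, and in the internal mammary artery -0.02 with the smooth muscle covariate and -0.02 in the later pigs. For the dimmer one it was 0.28 in the brachial artery of the later pigs (-0.12 to 0.03 as pigs were left out). For ACVR2B it was -0.04 in the brachial artery without pigs 13_2 and 15_1 and -0.04 in the internal mammary artery of the earlier pigs. Causes were not tested. Over all probe sets the training calls ranged from 0 (the later pigs alone) to 779 (smooth muscle covariate), against 392 as reported, in the brachial artery; from 0 (the later pigs) to 337 (array weights), against 143, in the internal mammary artery; and from 28 (the later pigs) to 1996 (no replicate block), against 1123, in the mean of both. Leaving out 1 pig gave 149 to 589, 35 to 291 and 705 to 1223 calls. With each artery fitted alone, and with both arteries averaged per pig for the mean, they were 122, 13 and 364. The signal over background is unknown here, and 5 of the 10 members were among the dimmest 33.3% of probe sets, where small differences are least secure.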
